A study of Mus musculus with 8 samples.

Results

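The fibrinolytic system of lung endothelium was followed through 6 genes, Plat, Plau, Plaur, Serpine2, Anxa2 and S100a10, out of 34899 genes in the deposited table. They were taken by gene name and selected on their measured normalised counts in HF and LF, that of Plat above all, so the difference between the groups in these genes is described without a test and supports nothing further. RNA-seq had been carried out on endothelial cells of female C57BL6 mice, sorted from the lung as cells lacking CD45 and carrying CD31, in 4 HF and 4 LF mice. The labels do not spell out HF and LF, give no age, feeding time or other agent, and the title of the series sets the mice in work on obesity, neutrophil oxidants and metastasis. All 6 genes passed the filter on low values, which kept 17067 genes.

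Plasmin, the protease that dissolves fibrin, is made from its circulating precursor plasminogen by an activator. Endothelial cells are the main vascular source of the tissue-type activator, encoded by Plat, which they store and release on stimulation. The urokinase-type activator, encoded by Plau, works largely at the cell surface, bound to its receptor, encoded by Plaur. A tetramer of annexin A2 (Anxa2) and its S100-family partner S100A10 gathers plasminogen and the tissue-type activator on the endothelial surface. Serpins such as protease nexin 1 (Serpine2) inhibit the activators, plasmin and thrombin.

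Libraries held 10631506 to 20781564 reads assigned to genes, and values below are the authors' normalised read counts. Marker genes fitted the label, with Pecam1, which encodes CD31, between 19424.5 and 33236 in all libraries. Of 10 endothelial markers, 9 had a mean that was greater in HF. The summed endothelial markers lay at 172911 to 194792 in HF and at 180830 and 209213 in LF 3 and LF 4, but at 128922 in LF 1 and 138023 in LF 2. These LF 1 and LF 2 libraries also stood at -56.4 and -50.9 on the leading principal component, where the others ran from -6.79 to 39.6. Genes of the annotation's provisional class TEC took 0.725% and 0.635% of their reads, against 0.286% to 0.443% in the others, and LF 1 had the fewest reads. The part of these signs in the Plat difference was not tested. Markers of other cells were present too. The summed markers were 3188 to 5961 in HF and 5455 to 7108 in LF for leukocytes (10 of 10 genes with the lower mean in HF, Ptprc included), 15393 to 23758 and 18351 to 35579 for alveolar epithelium (8 of 8 lower), 2790.2 to 4484 and 3916 to 7184 for airway epithelium (5 of 5 lower), and 198 to 317 and 337 to 640.1 for mesothelium (4 of 5 lower). They were 1171 to 2936 and 1929 to 3906 for fibroblasts (4 of 6 lower), 1933 to 2332 and 2299 to 3784 for smooth muscle and pericytes (7 of 8 lower), 882 to 4744 and 1174 to 2947 for platelets (5 of 5 higher), 21332 to 23997 and 23686 to 43433 for erythroid cells (5 of 5 lower), and 11641 to 13262 and 10432 to 12970.1 for lymphatic endothelium (3 of 5 lower). No listed marker was at 0 in every library, though Cd3e, Upk3b, Wt1 and Lrrn4 had means under 10 over the 8 libraries. The mesothelial sum was thus mostly Krt19, at means of 248 in HF and 467 in LF, while Msln was at 9.02 and 12.8. In sorted bulk samples fewer cells of a type and less RNA per cell cannot be told apart. The part of these other cells in the values of the 6 genes, and of the pathway genes below, was not tested.

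Plat (ENSMUSG00000031538; chromosome 8, 22757727 to 22782844, plus strand, GRCm38) was the member whose groups stood apart. Its normalised counts were 11271, 10238, 9632 and 10074 in HF 1 to HF 4. In LF 1 to LF 4 they were 3683, 4715, 6676 and 8012. Every HF library was above every LF library, with the HF values close together and the LF values widely spread. The HF mean was 10304 ± 694 and the LF mean 5772 ± 1942 (SD, n = 4 each). The limma fit on the log2 scale gave a difference of 0.90 with a standard error of 0.21, which is a fold of 1.86. The authors' deposited table lists a log2 fold change of 0.84 with a standard error of 0.21 for it. Across all genes tested, 3.47% had every HF value above every LF value and 1.96% had every HF value below. The limma test with Benjamini-Hochberg adjustment called 0 of the 17067 genes, 0% of them, with 1882 genes (11% of those tested) at an unadjusted p under 0.05, and edgeR likewise called 0, with 1905 at an unadjusted p under 0.05. DESeq2 called 309, which was 2% of the 15412 genes it gave an adjusted p, 1.45% higher and 0.558% lower.

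The size of the Plat difference depended on which LF libraries entered it. With LF 1 and LF 2 left out it was 0.49 on the log2 scale, and with LF 3 and LF 4 left out 1.30. Leaving out 1 library at a time gave 0.70 to 1.08. Plat remained above LF in each of these fits.

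**Figure D1:**
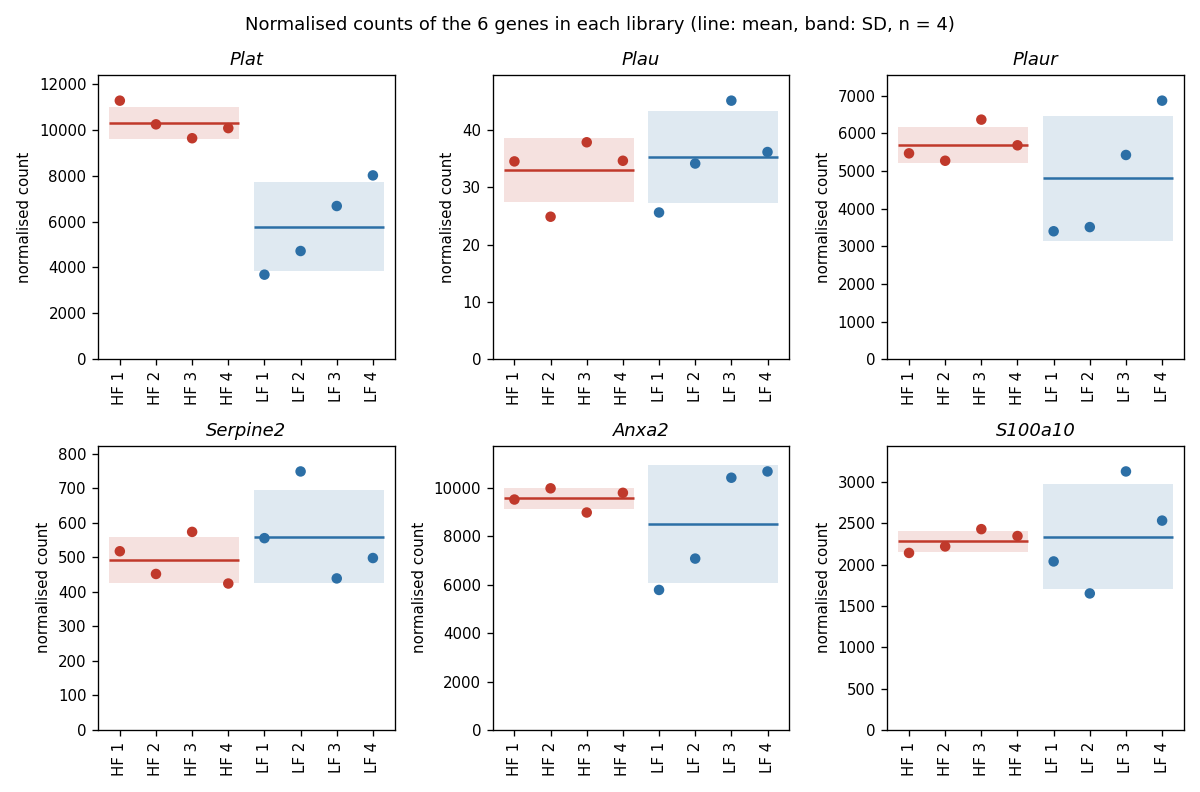
Normalised count (y axis, from 0) of each of the 6 genes in the 4 HF (red) and 4 LF (blue) libraries, 1 point per library, with the group mean as a line and the SD as a band. In Plat the HF points, from 9632 to 11271, all lie above the LF points, from 3683 to 8012, while in the other 5 genes the groups overlap.

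Plaur (ENSMUSG00000046223; chromosome 7, 24462484 to 24475968), the receptor that holds urokinase at the membrane, shared the spread of the LF libraries but not the gap between groups. Its normalised counts were 5472, 5275, 6369 and 5686 in HF 1 to HF 4. They were 3400.3, 3511, 5429 and 6873 in LF 1 to LF 4. LF 1 and LF 2 were below all HF libraries, LF 3 was among them and LF 4 was above them. The means were 5700.4 ± 476 and 4803 ± 1665, a log2 difference of 0.31 with a standard error of 0.21. Leaving out LF 1 and LF 2 turned it to -0.10, and leaving out LF 3 and LF 4 gave 0.72.

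Anxa2 (ENSMUSG00000032231; chromosome 9, 69453620 to 69491795) encodes the annexin subunit of the surface assembly site. It was at 9525, 9989, 8989 and 9803 normalised counts in HF 1 to HF 4. In LF 1 to LF 4 it was at 5788, 7084, 10427 and 10687. The LF values again lay on both sides of the HF values, in the same order of libraries as for Plat and Plaur. The means were 9576 ± 436 and 8496 ± 2439.6, a log2 difference of 0.22 with a standard error of 0.19. It turned to -0.14 when LF 1 and LF 2 were left out and grew to 0.58 when LF 3 and LF 4 were. The annotation places the microRNA gene Mir3109 on its strand and the antisense gene Gm16144 on the other, at no more than 5.02 and 24.9 normalised counts in any library.

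S100a10 (ENSMUSG00000041959; chromosome 3, 93555080 to 93564643) encodes the partner that carries the plasminogen-binding tail. Its normalised counts were 2143, 2222, 2431 and 2347 in HF 1 to HF 4. In LF they were 2039.9, 1652, 3129 and 2534. The lowest and the 2 highest of the 8 values were all LF libraries, and the group means were nearly equal, at 2286 ± 128 and 2339 ± 639, with a log2 difference of 0.0058 and a standard error of 0.17. It was -0.30 when LF 1 and LF 2 were dropped and 0.31 when LF 3 and LF 4 were. The annexin to S100a10 ratio of normalised counts was 3.70 to 4.50 in HF and 2.84 to 4.29 in LF, so the genes for the partners of this complex overlapped between groups in their ratio as well.

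Serpine2 (ENSMUSG00000026249; chromosome 1, 79794197 to 79861180, minus strand), the serpin of the set, ran the other way among the LF libraries. It was at 517, 451, 573 and 424 normalised counts in HF 1 to HF 4. It was at 555, 748, 439 and 498 in LF 1 to LF 4. LF 2 held the highest value of all, and LF 3, which was high for Anxa2 and S100a10, held the second lowest. The means were 491 ± 67.2 and 559.9 ± 134, a log2 difference of -0.17 with a standard error of 0.17, which turned to 0.063 when LF 1 and LF 2 were dropped and widened to -0.40 when LF 3 and LF 4 were. Summed fibroblast markers were also highest in LF 2, at 3906, as were those of alveolar epithelium, at 35579, and of smooth muscle and pericytes, at 3784, and their part in the Serpine2 value was not tested.

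Plau (ENSMUSG00000021822; chromosome 14, 20836660 to 20843385) was scarce in every library, at 21 to 45 reads. Its normalised counts were 34.5, 24.9, 37.9 and 34.7 in HF, and 25.6, 34.2, 45.2 and 36.2 in LF. The groups overlapped, with means of 33.0 ± 5.63 and 35.3 ± 8.02 and a log2 difference of -0.083 with a standard error of 0.28. Of the 6 genes, 1 thus had groups that did not overlap, in a table where 5.43% of the genes tested had such groups in either direction.

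Promoter sequence from RefSeq (GRCm38.p6) matched 3 of the 6 genes by symbol. They are shown because only they had an entry, and no link between sequence and expression was tested. Each line is the 250 bases before the start that RefSeq gives the gene, 5′ to 3′ on the gene's strand. The RefSeq start differs from the GENCODE start printed above for Anxa2 and Serpine2: the Anxa2 window runs past the GENCODE start, and the Serpine2 window lies inside the gene as GENCODE draws it. Capitals mark matches to the AP-1 motif TGACTCA or its reverse complement and to the TATA motif TATAAA or its reverse complement.
Plaur, chr7:24462233-24462482, plus strand: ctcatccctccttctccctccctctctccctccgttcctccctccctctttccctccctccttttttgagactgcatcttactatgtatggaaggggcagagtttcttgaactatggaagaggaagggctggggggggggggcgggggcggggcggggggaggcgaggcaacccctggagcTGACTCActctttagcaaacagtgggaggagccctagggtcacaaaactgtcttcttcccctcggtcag
Anxa2, chr9:69453433-69453682, plus strand: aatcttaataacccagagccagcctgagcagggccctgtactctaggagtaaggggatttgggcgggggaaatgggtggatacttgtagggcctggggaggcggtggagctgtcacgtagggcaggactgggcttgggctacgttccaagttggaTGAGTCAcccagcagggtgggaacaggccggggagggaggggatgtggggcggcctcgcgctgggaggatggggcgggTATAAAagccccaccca
Serpine2, chr1:79858666-79858915, minus strand: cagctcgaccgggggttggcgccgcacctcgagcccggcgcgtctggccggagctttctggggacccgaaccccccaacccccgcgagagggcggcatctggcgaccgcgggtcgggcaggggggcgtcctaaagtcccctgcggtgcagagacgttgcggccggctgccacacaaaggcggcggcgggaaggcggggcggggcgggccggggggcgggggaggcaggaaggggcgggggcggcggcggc
The AP-1 motif began 69 bases before the RefSeq start in Plaur and 95 bases before it in Anxa2, and had no match in the Serpine2 window. Of 32851 windows of the same length, 4.46% held this motif on either strand. The TATA motif was found in the Anxa2 window, 17 bases before the RefSeq start and inside the gene as GENCODE draws it, and in 12.4% of all windows. The GC box GGGCGG, searched on both strands and not capitalised, was found 3 times in Plaur, 3 times in Anxa2 and 6 times in Serpine2, some of them next to or overlapping each other, and in 32.7% of all windows. The Serpine2 window had 78.8% G and C, against a median of 52.4% over all windows. These motifs were chosen after the sequences had been seen, and a match describes letters, not a bound site.

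Values per kilobase of exon used the union of a gene's annotated exons, 6241 bases for Plat and 1212 for S100a10. The order of genes at similar levels rests on these lengths. On that scale Anxa2 had the highest mean of the 6 genes in HF, at 2567 ± 117 normalised counts per kb. Plaur followed at 2178 ± 182, S100a10 at 1886 ± 106 and Plat at 1651 ± 111. The HF ranges of Anxa2 and Plaur overlapped, as did those of S100a10 and Plat, while Plaur lay above S100a10 in every HF library. In LF Plat was below these other 3 throughout, at 925 ± 311 per kb, while Anxa2 at 2277 ± 654, S100a10 at 1929.9 ± 527 and Plaur at 1835 ± 636 overlapped widely. Serpine2 and Plau were far lower in both groups, at 59.3 ± 8.10 and 13.9 ± 2.38 per kb in HF and 67.6 ± 16.2 and 14.9 ± 3.39 in LF. By mean level per kb, Plat stood at percentile 96.8 of the genes tested, Serpine2 at percentile 48.7 and Plau at percentile 20.3. Per kb, the level of Plat was thus far above that of Plau in every library.

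**Figure D2:**
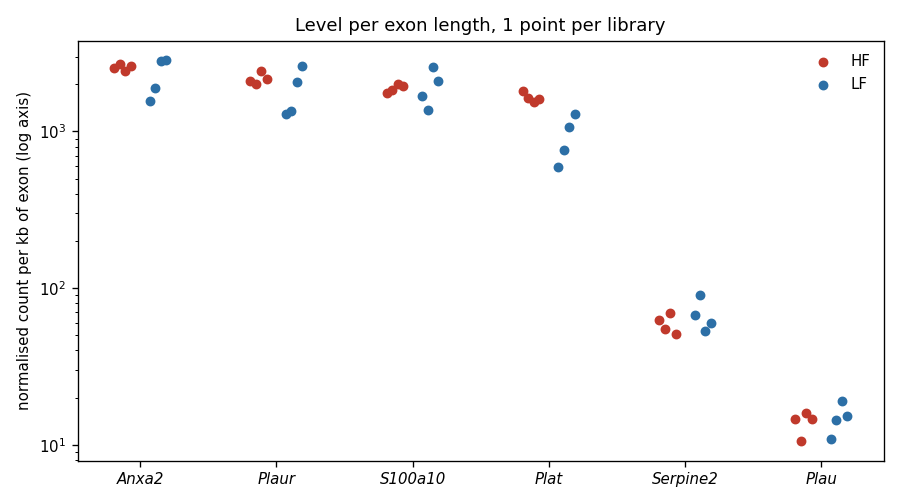
Normalised count per kb of exon (y axis, log scale) for the 6 genes, ordered by their HF mean, with 1 point per library in HF (red) and LF (blue). Anxa2, Plaur, S100a10 and Plat lie between 590.2 and 2864, and Serpine2 and Plau between 10.5 and 90.3.

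Because LF 1 and LF 2 were low in several members at once, Plat was also set against the other members within each library, a comparison chosen after the values had been seen. The ratio of Plat to Anxa2 counts was 1.18, 1.02, 1.07 and 1.03 in HF 1 to HF 4. In LF 1 to LF 4 it was 0.636, 0.666, 0.640 and 0.750. The LF libraries, which differed 2.18-fold in Plat itself, were close together in this ratio, and the groups did not overlap. The mean ratio was 1.08 ± 0.0741 in HF and 0.673 ± 0.0528 in LF (n = 4 each), 1.60-fold apart. Among the other genes tested, 0.357% had a ratio to Anxa2 that was higher in every HF than in every LF library.

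The ratio of Plat to Plaur was 2.06, 1.94, 1.51 and 1.77 in HF and 1.08, 1.34, 1.23 and 1.17 in LF, also without overlap, where 0.0879% of genes had such a ratio to Plaur. Plat to S100a10 was 3.96 to 5.26 in HF and 1.81 to 3.16 in LF (background 1.07%). Plat to Serpine2 was 16.8 to 23.8 in HF and 6.30 to 16.1 in LF, with the top LF value close to the lowest HF value (background 3.41%). Plat to Plau, which rests on few Plau reads, was 254 to 411 in HF and 138 to 221 in LF (background 1.08%). The log2 difference of the Plat to Anxa2 ratio stayed between 0.63 and 0.73 and that of Plat to Plaur between 0.53 and 0.68 in all 14 alternatives, the pairs of LF libraries left out included. The log2 difference of Plat to Serpine2 was less stable, at 1.07 with all libraries, 0.43 when LF 1 and LF 2 were dropped and 1.70 when LF 3 and LF 4 were. That of Plat to Plau went from 0.98 to 0.63 under quantile normalisation. Since Plat was chosen for its difference, these ratios restate that difference on another scale and nothing is read from the backgrounds.

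**Figure D3:**
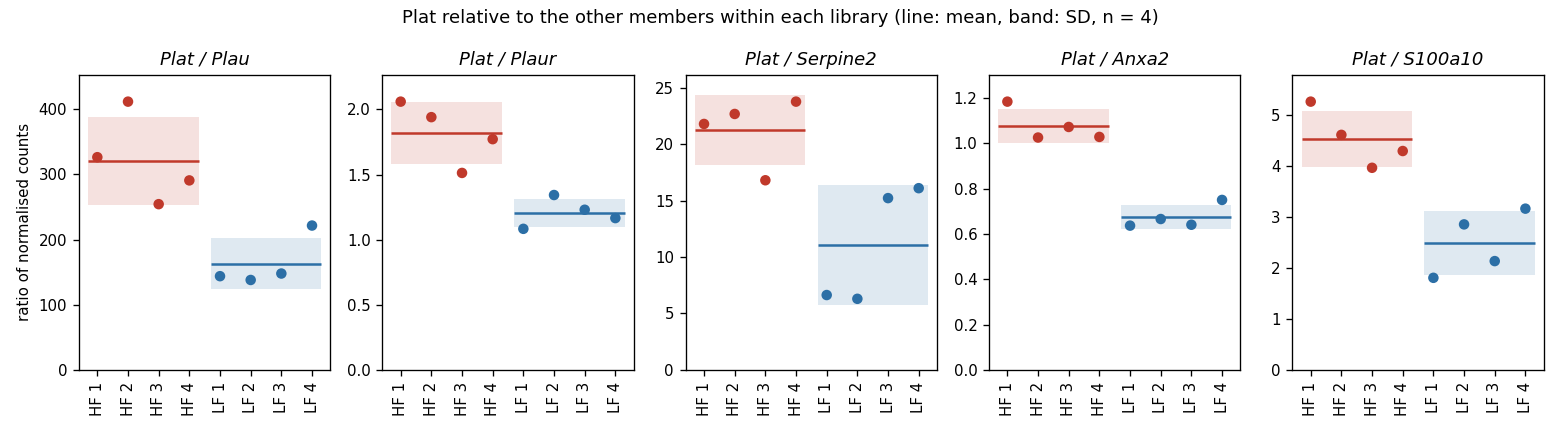
Ratio of the normalised count of Plat to that of each of the other 5 genes within each library (y axes from 0), HF in red and LF in blue, with the group mean as a line and the SD as a band. For Anxa2 the HF ratios lie between 1.02 and 1.18 and the LF ratios between 0.636 and 0.750.

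The members were next set against the summed endothelial markers, a scale also chosen after the values had been seen. Plat counts amounted to 6.32%, 5.34%, 5.57% and 5.17% of the marker sum in HF 1 to HF 4, and to 2.86%, 3.42%, 3.69% and 3.83% in LF 1 to LF 4. The groups did not overlap, and the fold was 1.63, in a table where 0.568% of genes had such a ratio to the marker sum. This ratio again restates the difference for which Plat was chosen, and nothing is read from the background. Anxa2 amounted to 5.20% ± 0.126 of the marker sum in HF and 5.12% ± 0.521 in LF, with a fold of 1.02. Plaur amounted to 3.11% ± 0.406 and 2.87% ± 0.342, and S100a10 to 1.16% to 1.41% and 1.20% to 1.73%, with overlapping groups. Serpine2 and Plau overlapped as well. On this scale LF 1 was the lowest library for Anxa2, at 4.49%, and LF 2, at 5.13%, lay inside the HF range.

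The genes whose libraries varied most like those of Plat within the groups were Sde2, Pcbp3, Ppp2r2a, Pik3c3 and Cyb5r1. Likeness was the Pearson correlation of deviations from the group means over 8 libraries, and these 5 had the highest values of 10904 genes, 0.993 for Sde2 and 0.992 for Cyb5r1. The measure rests largely on the spread among the LF libraries, which touches many genes: 871 genes had a correlation over 0.9. Which 5 came first was unstable, since leaving out any single library kept between 0 and 3 of them. None of the 5 had the gap between groups that Plat had. Their log2 differences, HF over LF, were 0.15 to 0.25, and their groups overlapped. Among the 100 most alike genes the median log2 difference was 0.15 and the highest 0.53, in Creld2, below the 0.90 of Plat, and 0 of the 100 had groups that did not overlap. A larger difference in Plat follows largely from its being chosen for that difference, so nothing is read from this comparison. Among the other members, Anxa2 ranked 109 with a correlation of 0.964 and Plaur 983 with 0.895, while Serpine2 was at -0.48.

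**Figure D4:**
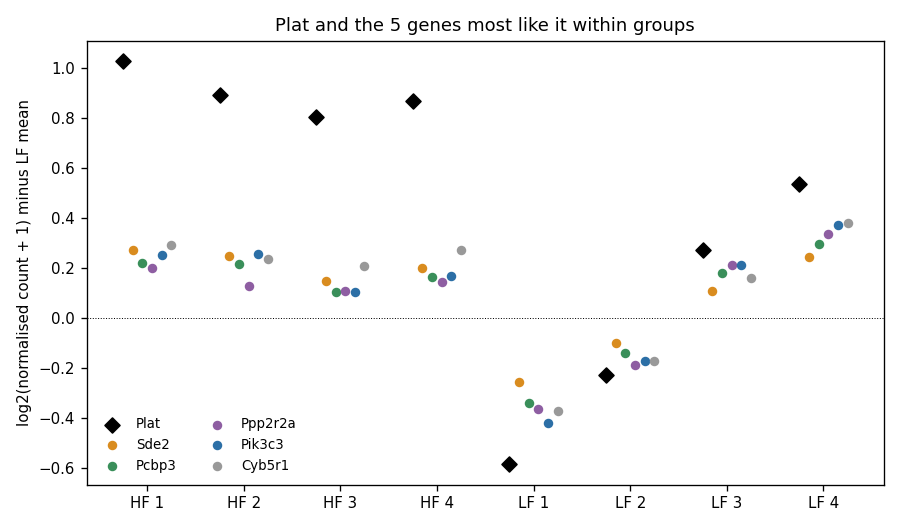
Difference of log2(normalised count + 1) from the LF mean (y axis) in each library for Plat (black diamonds) and the 5 genes most like it within groups (coloured circles). In the LF libraries all 6 genes are lowest in LF 1 and highest in LF 4, and in the HF libraries Plat lies apart from the 5, whose log2 differences between groups are 0.15 to 0.25 against 0.90 for Plat. Plat was chosen for its difference between groups and the 5 were not.

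The rest of the pathway was taken from a list of 43 genes by role. Of these, 3 had no row, 8 were too low to test and 32 were tested, of which limma called 0 higher and 0 lower (0% of all genes were called). Without adjustment, 2 were higher and 8 lower in HF at a p under 0.05, where 11% of all genes tested were in either direction. edgeR called 0 of the 32 and DESeq2 called 1, where it called 2% of all genes. The median log2 difference of the 32 was -0.16, where that of all genes tested was 0.023. The mean was greater in HF for 9 and smaller for 23, where it was smaller for 7980 of the 17067 genes tested. The groups did not overlap in 4 of them, Edn1 above and Serpini1, Timp1 and Cd63 below, which is to be read against the 3.47% and 1.96% above.

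Plasminogen itself and the contact-phase proteases were nearly absent. Plg had 0 reads in 7 of the 8 libraries, and the means of F12 and Klkb1 were under 2 normalised counts in both groups.

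Among 9 tested receptors for plasminogen or for clearance of activators, 8 had the lower mean in HF (median log2 difference -0.42). Lrp1, the endocytic receptor that removes activator and inhibitor complexes, averaged 347 ± 158 (HF) and 606 ± 130.2 (LF), with a limma adjusted p of 0.223. HF 1, at 581, was the only HF library above any LF library, and without it the log2 difference went from -0.87 to -1.15. Mrc1, a mannose receptor that takes up the tissue-type activator, was at 118 ± 31.2 and 199 ± 48.9 (limma adjusted p = 0.286). Mrc1 and Lrp1 are also well known from macrophages and fibroblasts, whose summed markers are given above. The 9 include Itgam, which is also on the leukocyte marker list and is named after its values were seen. Its log2 difference was -2.05, at means of 8.93 in HF and 24.6 in LF (limma adjusted p = 0.335). It was scarce, at 1.02, 19.6, 0.972 and 14.2 normalised counts in HF. In LF it was at 18.3, 20.3, 38.1 and 21.5, and the groups overlapped. Plgrkt, the plasminogen receptor with a terminal lysine, was level, at 1339 ± 215 and 1394 ± 254 (limma adjusted p = 0.905).

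Among 7 tested inhibitors and cofactors, 6 had the lower mean in HF (median log2 difference -0.43). Serpini1, or neuroserpin, which inhibits the tissue-type activator and is best known from brain, was at 44.8 ± 10.5 and 69.9 ± 3.07, with all HF libraries below all LF libraries (fold 0.632, limma adjusted p = 0.340). Serping1, the C1 inhibitor, was at 1163 ± 271 and 1553 ± 262 (limma adjusted p = 0.385). Within each group its libraries stood in the same order as those of the summed fibroblast markers, seen after the values were known. The part of fibroblasts in the Serping1 values was not tested. Thbd, the thrombin receptor thrombomodulin, was the most abundant transcript of the list, at 35308 ± 2497 and 28575 ± 8385 (limma adjusted p = 0.548), and its LF values of 21336, 22757, 30665 and 39543 had the libraries in the same order as those of Plat.

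Substrates and proteases downstream of plasmin had a median log2 difference of -0.11 over 7 genes, of which 6 had the lower mean in HF, and 0 were at an unadjusted p under 0.05. Their values ranged widely, down to -1.54 in Mmp9, a gelatinase known from neutrophils (limma adjusted p = 0.497). Mmp9 is named after its values were seen and was scarce, at 15.2, 8.89, 0 and 5.51 normalised counts in HF and 26.8, 28.6, 7.03 and 10.2 in LF, with overlapping groups. F2r, the thrombin receptor PAR1, was at 2331 ± 70.6 and 2880.4 ± 537 (limma adjusted p = 0.472), and Mmp14, a membrane-bound metalloprotease, at 815 ± 95.9 and 753 ± 115 (limma adjusted p = 0.754). Timp1 is named after its values were seen, with 11.2, 8.89, 14.6 and 13.4 in HF and 15.9, 16.6, 22.1 and 22.6 in LF.

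Plat protein is held in secretory granules, and genes of regulated secretion and the Weibel-Palade body were measured for that reason. Their median log2 difference was 0.12 over 9 genes, with 6 means higher in HF. Edn1, the precursor of endothelin-1 and a granule cargo, was at 3560, 3660, 3668 and 3486 in HF and 2158, 2475, 2730 and 2720 in LF. All HF libraries were above all LF libraries, with a fold of 1.43 (limma adjusted p = 0.163), and Edn1 was the gene DESeq2 called (adjusted p = 0.00202). Cd63, a tetraspanin of granule membranes, was below LF in every HF library, at 803 ± 75.9 against 1019 ± 25.7 (fold 0.786, limma adjusted p = 0.275). Vwf, the main granule cargo, was at 18002 ± 618 and 16004 ± 3938 (limma adjusted p = 0.677), and P-selectin (Selp) at 212 ± 60.7 and 224 ± 66.5 (limma adjusted p = 0.915). Whether the difference in Plat differs from that in Vwf was not tested.

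Limma calls in the pathway appeared when a pair of LF libraries was left out. Without LF 3 and LF 4 limma called 3421 genes, 20% of those tested (14% higher, 6.02% lower), and among the 32 it called Thbd, Edn1 and Eno1 higher and 4 genes lower, Lrp1, Mrc1 and Vldlr among them (limma adjusted p = 0.00391 for Thbd and 0.0445 for Lrp1). Without LF 1 and LF 2 it called 641 genes, 3.76% of those tested (3.09% higher, 0.662% lower), and among the 32 it called Edn1 higher and F2r lower (limma adjusted p = 0.0294 and 0.0317). Edn1 was the only gene of the 32 called in both. Both fits use the same HF libraries. The pairs left out follow the split of the LF libraries on the leading principal component, so the LF libraries kept in each fit are alike. The adjusted p-values of these fits are therefore likely too small. Eno1 and Vldlr are named after their values were seen.

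**Figure D5:**
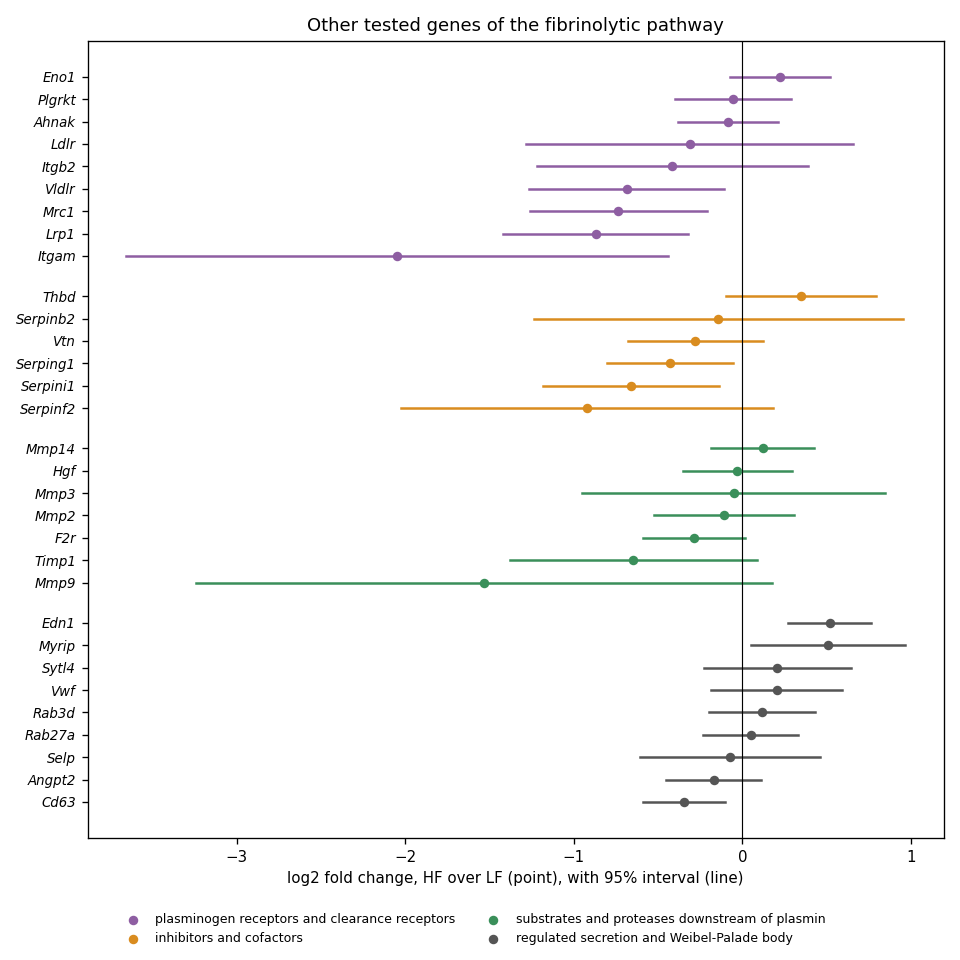
Log2 fold change of HF over LF (x axis) with its 95% interval from the limma fit for the tested genes of the pathway list, coloured by role, with 1 inhibitor not drawn. Most receptors and inhibitors lie left of 0, and no gene passed the adjusted threshold.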

How the data were processed

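Lung endothelial RNA-seq of 4 HF and 4 LF mice was analysed from a deposited table of 34899 genes. Per the labels' protocols, TRIzol LS was used for RNA and a SMART-Seq kit for libraries. STAR 2.6.1b, DESeq2 1.24.0 and featureCounts 2.0.0 appear in the submitters' processing notes. The build, annotation and counting strand were not given in the sources used here. Normalised counts per gene and library were deposited by the authors, a signal not scaled for gene length, and the same deposited table holds their log2 fold change with its standard error, their Wald statistic (a score) and the p-value and adjusted p-value of their comparison, per the file headers. All values were whole reads over a size factor of 0.82 to 1.27 (100% whole within 0.01 reads), so reads were recovered.

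The main test was limma 3.58.1 (R 4.3.3) on log2(normalised count + 1) with a trended variance, two-sided, at a Benjamini-Hochberg adjusted p under 0.05. It covered the 17067 genes that reached 10 normalised counts in 4 or more libraries. edgeR 4.0.16 (quasi-likelihood, TMM) and DESeq2 1.42.0 were run on recovered reads. Folds come from differences between group means on a log2 scale, not from ratios of the means printed beside them. Fold changes on the log2(value + 1) scale differed from those of the count models in low genes, in either direction. Itgam was at -2.05, against -1.47 in DESeq2 and -1.43 in edgeR. Mmp9 was at -1.54, against -1.33 and -1.32, and Timp1 at -0.65, against -0.70 and -0.69. Positions and union exon lengths are from GENCODE M21 (GRCm38), in which all 34899 gene IDs were found, and 24 symbols turned into dates were restored. No other gene's transcript matched a member at 90% identity over 100 bases. Tests were tried on simulated counts. Values of 1 pathway gene and 1 marker are not reported here.

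The members, lists and tests were chosen with earlier results of these data known. Pathway genes named were 6 fixed ones and, per role, the 2 with the smallest unadjusted p among those with a group mean of at least 50. Genes like Plat were the 5 with the highest correlation among genes with a mean of at least 50. No libraries of a group agreed within sampling noise (chi-square per degree of freedom 9.06 to 45.2), so none was treated as a repeat deposit. Per the series' design text each group had 4 mice. Alternatives were both count models, quantile normalisation, a pseudocount of 0.5 or 5, TMM rescaling, no filter or a stricter one (mean of 50 or more), a replicate block, and leaving out single libraries or pairs of LF libraries.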

Additional observations from a re-analysis of the deposited data

Results flagged for a closer look

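Among 48 groups of 4 libraries examined for the members, the named genes and the Plat ratios, 2 held a library far from the other 3 relative to the group's range, which chance gives in about 1 of 20 groups. Mrc1 was at 126 normalised counts in LF 4, where the other LF libraries lay between 219 and 228. The ratio of Plat to Plau counts was 221 in LF 4, against 138 to 148 in the other LF libraries, and rests on 32 Plau reads in that library.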

How the results depend on the processing

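Limma called 0 genes with all 8 libraries, and 0 with quantile normalisation, either pseudocount, the stricter filter, TMM rescaling and edgeR, 1 (higher) without a filter, 309 with DESeq2 (223 higher, 86 lower), 641 without LF 1 and LF 2 (528 higher, 113 lower) and 3421 without LF 3 and LF 4 (2393 higher, 1028 lower). Leaving out 1 library gave 0 to 1 calls in all, 0 to 1 higher and 0 to 1 lower. Of the 32 pathway genes, DESeq2 called 1 (higher), the fit without LF 1 and LF 2 called 2 (1 higher) and the fit without LF 3 and LF 4 called 7 (3 higher); leaving out 1 library called 0. The cause was not tested. With the replicate number as a block limma called 0 genes. Deviations of same-numbered libraries from their group means had correlations of 0.115, -0.22, -0.14 and 0.185. So few correlations cannot show whether the numbers pair the samples. The median of all genes moved by less than 0.1 on the log2 scale in every setting.

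Plat kept its direction in all 19 alternatives (lowest log2 difference 0.49, without LF 1 and LF 2). S100a10 changed sign in 9 of 19, Plau in 4 of 18, and Plaur, Serpine2 and Anxa2 in 1 each, without LF 1 and LF 2. Signs turned for Plgrkt without HF 4 (0.038), LF 1 (0.011), LF 2 (0.030) and the LF 1 and LF 2 pair (0.17), for Selp without HF 2 (0.027), HF 4 (0.064) and LF 2 (0.096), and for Mmp14 without LF 3 and LF 4 (-0.062). Leaving out single libraries gave -0.16 to 0.038 for Plgrkt and -0.21 to 0.096 for Selp. Depth limits Plau most, at 21 to 45 reads.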
